A study of Mus musculus with 6 samples.

Results

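The genes described here are 10 markers of the lipid and debris clearing state of phagocytes, often called disease-associated microglia or macrophages. They were taken by symbol from a table of 32371 mouse genes, and all 10 were found. They are the receptors Trem2, Clec7a and Axl, the adaptor Tyrobp, the integrin chain Itgax, the lipid carrier Apoe, the lipase Lpl, the cystatin Cst7, the glycoprotein Gpnmb and the secreted protein Spp1. They were chosen by their known role in this state with their log2 fold changes between Ezh2-Y726D and GFP already seen, so these differences are described and no P value is attached to them.

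Microglia and macrophages that meet lipid debris, myelin or dying cells switch on a shared set of genes and turn down some of the genes of resting microglia. Trem2 binds lipids and apolipoproteins at the cell surface and signals through the adaptor Tyrobp. Genes such as Apoe, Lpl, Cst7, Itgax, Clec7a, Axl, Gpnmb and Spp1 mark this state. In the retina such cells gather where RGCs die after injury of the optic nerve.

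The data were RNA-Seq counts from 6 libraries of adult C57BL/6J mice, which the study's methods give as 6 to 10 weeks old and of both sexes. In 3 libraries the mice had received AAV2-GFP and in 3 AAV2-Ezh2-Y726D, a form of the histone methyltransferase Ezh2 with a single amino acid change that removes its catalytic activity. All mice then underwent optic nerve crush (ONC) 2 weeks after the virus, and the retinal cells were sorted 3 days later on CD90.2 (encoded by Thy1) and on exclusion of a dead cell dye. The virus was injected into the vitreous, so that any retinal cell AAV2 enters could carry it. The sources do not say whether a library held 1 or several mice, and the P values below therefore measure the spread between libraries, which may be technical in part.

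Total counts lay between 9333244 and 23782520 per library. The rRNA gene CT010467.1, singled out after its values were seen, made up 50.9% of GFP replicate 2, 52.2% of GFP replicate 3 and at most 16.1% in the others, which left those replicates 5745352 and 4460732 counts on other genes. Levels are CPM, counts relative to the TMM-scaled library total, and 1 count was worth 0.0339 to 0.166 CPM. Ezh2 reached 22.7, 23.9 and 26.4 CPM with GFP and 65.3, 65.6 and 65.2 CPM with Ezh2-Y726D, as the labels require, although the counts do not separate the vector from the endogenous gene. The sort on CD90.2 did not leave RGCs or T cells alone. All 14 genes that myeloid cells express in general were tested, with a summed level of 1282 to 1375 CPM in GFP against 571 to 656 CPM after Ezh2-Y726D. Some of them, such as Ptprc, Coro1a and Rac2, are also expressed by T cells, so this sum is not of myeloid cells alone. The cone photoreceptor gene Gnat2 was at 72.7 ± 1.66 CPM (SD, n = 3) in GFP, against 106 ± 5.53 CPM (SD, n = 3) for Thy1 and 9.82 ± 0.552 CPM (SD, n = 3) for the RGC transcription factor Pou4f1, and all 14 listed RGC markers were detected. In such bulk RNA, fewer phagocytes and less RNA of a gene per phagocyte cannot be told apart.

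Of the 10 genes, 9 were lower and 1, Lpl, was higher after Ezh2-Y726D. The groups did not overlap in 9 of the genes, in 8 of them with the Ezh2-Y726D libraries below GFP. This was so for 38.6% of all 18138 genes tested in either direction and for 18.9% with Ezh2-Y726D below. A differentially expressed gene (DEG), by the thresholds of the study, had to differ over 1.5-fold with an adjusted P below 0.05. Of the 10, 7 were lower by this rule and none was higher, beside 5.5% and 2.52% of all genes tested and 8.02% in either direction. Below, fell and rose are used of genes with an adjusted P below 0.05, and called of DEGs. The members were picked with this contrast known, so nothing is read from these counts. The median log2 fold change of the 10 was -0.73, and that of all genes tested was 0.00.

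**Figure D1:**
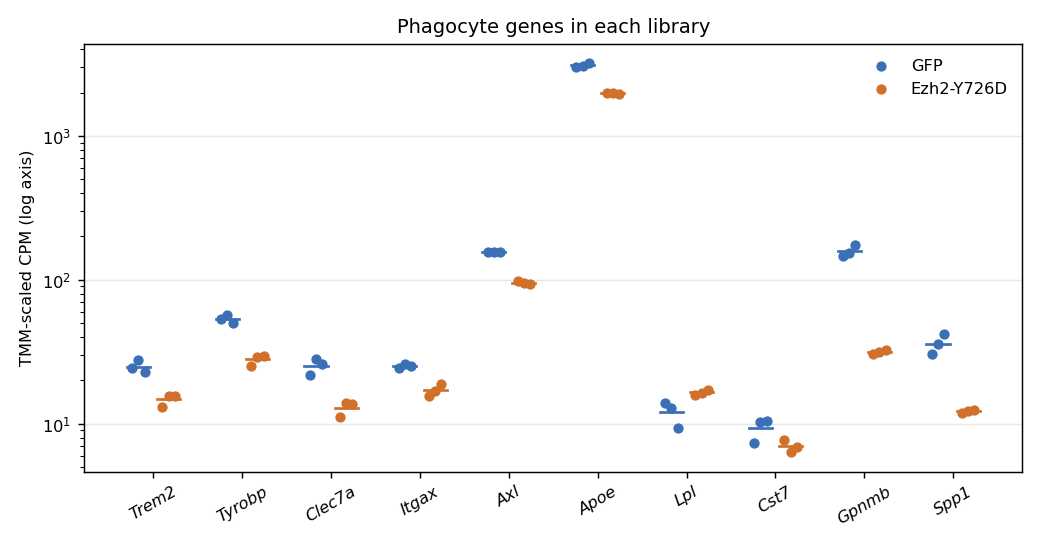
TMM-scaled CPM (log axis) of the 10 phagocyte genes in each GFP (blue) and Ezh2-Y726D (orange) library, with replicates 1 to 3 from left to right and a bar at the group mean (n = 3 each). Apoe is near 3099 CPM in GFP and Cst7 near 9.37 CPM, and the groups overlap for Cst7 alone.

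The sequences before the start of transcription were searched for short motifs, most of them of factors that act in phagocytes. The set of RefSeq promoters used here (GRCm38.p6) held 8 of the 10 genes, and Tyrobp and Lpl had no entry in that set. The 250 bases before the most upstream start are shown for Gpnmb and Spp1, which differed most, and for Trem2 and Itgax, which share a motif, 5′ to 3′ on the plus strand. Capitals mark letters of the motifs listed after them.
Gpnmb, chr6:49036268-49036517: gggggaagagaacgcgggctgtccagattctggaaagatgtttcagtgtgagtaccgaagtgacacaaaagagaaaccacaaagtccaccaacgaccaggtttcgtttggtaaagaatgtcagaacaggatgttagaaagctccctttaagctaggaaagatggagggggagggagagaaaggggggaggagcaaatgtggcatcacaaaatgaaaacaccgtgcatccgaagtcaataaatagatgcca
Spp1, chr5:104434861-104435110: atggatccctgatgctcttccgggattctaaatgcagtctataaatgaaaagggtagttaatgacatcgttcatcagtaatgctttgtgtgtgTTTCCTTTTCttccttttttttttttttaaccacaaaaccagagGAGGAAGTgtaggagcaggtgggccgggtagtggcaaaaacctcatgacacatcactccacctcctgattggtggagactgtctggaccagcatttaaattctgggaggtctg
Trem2, chr17:48346151-48346400: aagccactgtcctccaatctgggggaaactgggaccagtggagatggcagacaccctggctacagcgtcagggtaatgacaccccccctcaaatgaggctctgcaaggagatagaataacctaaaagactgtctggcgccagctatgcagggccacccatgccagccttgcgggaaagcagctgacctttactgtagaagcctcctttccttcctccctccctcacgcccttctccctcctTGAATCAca
Itgax, chr7:128129300-128129549: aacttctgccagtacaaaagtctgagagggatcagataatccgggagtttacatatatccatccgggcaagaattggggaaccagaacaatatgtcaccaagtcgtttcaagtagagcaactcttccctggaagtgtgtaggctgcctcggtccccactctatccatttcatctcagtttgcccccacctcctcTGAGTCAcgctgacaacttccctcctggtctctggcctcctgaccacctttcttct

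The AP-1 motif TGANTCA, searched on both strands like those below, was found in Trem2 (-9 to -3 from the start) and Itgax (-56 to -50), and in 6.85% of 27026 promoters of the same length. The PU.1 motif GAGGAAGT was found in Spp1 (-113 to -106; 2.42% of promoters), as was the core of the interferon response element (-157 to -148; 3.05%), which lies there on the opposite strand. The M-box TCANGTG occurred in Cst7 alone (12.1%), and the E-box CACGTG (6.04%), which overlaps the M-box in TCACGTG, and the C/EBP motif TTGCNNAA (9.55%) occurred in none of the 8. Of the motifs marked with capitals, Gpnmb, with the largest difference, had none in this window, which says only that these letters are not there. TATAAA was found in Spp1 (13% of promoters) and GGGCGG in Axl (33%), and neither is marked.

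Trem2 and Tyrobp form the receptor complex at the start of the pathway. Trem2 (ENSMUSG00000023992, chromosome 17, 48346401 to 48354147, GRCm38) was at 24.3, 27.7 and 22.7 CPM in GFP replicates 1 to 3 and at 13.1, 15.6 and 15.6 CPM in Ezh2-Y726D replicates 1 to 3. All Ezh2-Y726D libraries lay below all GFP libraries. The fitted difference on the log2 scale was -0.75 (standard error 0.084). Tyrobp (ENSMUSG00000030579, chromosome 7, 30413760 to 30417585), which carries the activating motif that Trem2 lacks, was at 53.5, 56.6 and 50.4 CPM in GFP, against 25.3, 28.9 and 29.7 CPM after Ezh2-Y726D. Its log2 fold change was -0.94 (standard error 0.064), and again no library of one group reached the other. Per kilobase of exon, Tyrobp was the more abundant of the pair, and the ratio of Trem2 to Tyrobp was 0.0627 ± 0.00292 in GFP against 0.0713 ± 0.00167 after Ezh2-Y726D (SD over n = 3 per group). The ratio was thus higher in every Ezh2-Y726D library, so that Tyrobp differed a little more between the groups than its receptor.

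Genes that act beside or after this complex were followed in a list of 16, all of which were tested. It holds kinases, adaptors, phosphatases, a phospholipase, exchange factors, a transcription factor and the proteases Adam10 and Adam17, which shed Trem2. Of these, 10 were called lower and none higher as DEGs, and the list median was -0.66 on the log2 scale. Syk, the kinase that docks on Tyrobp and on Clec7a, fell from 26.03 ± 2.87 to 13.4 ± 1.14 CPM (SD over n = 3 per group), which is -0.93 on the log2 scale (standard error 0.083, adjusted P = 6.58e-10). Vav1, a guanine nucleotide exchange factor of blood cells, had the largest decrease of the list at -0.95 (standard error 0.065, adjusted P = 5.6e-12). Hcst, the DAP10 adaptor that lies next to Tyrobp on chromosome 7, was lower by a similar size (-0.79, standard error 0.25, adjusted P = 0.0175) but at 1.33 to 2.46 CPM in GFP its groups overlapped, and it did not pass with DESeq2 (adjusted P = 0.118) or without GFP replicate 1 (adjusted P = 0.332) or Ezh2-Y726D replicate 2 (adjusted P = 0.0793). In contrast, the family member Vav3 rose by 0.31 (standard error 0.069, adjusted P = 9e-04).

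Clec7a encodes Dectin-1, a receptor for fungal glucans that microglia carry when activated. Clec7a (ENSMUSG00000079293, chromosome 6, 129461591 to 129472779) is annotated as a polymorphic pseudogene in the GENCODE release used here. It was at 21.9, 28.0 and 25.9 CPM in GFP, against 11.2, 13.8 and 13.7 CPM after Ezh2-Y726D. The groups did not overlap, and the log2 fold change was -0.91 (standard error 0.094). Of the 10 tested genes that act after Clec7a, Syk and Vav1 were called lower and none higher, with a median of -0.37. Card9, the adaptor that passes the Clec7a signal to NF-kappaB, was at 4.94 ± 1.21 CPM in GFP against 3.90 ± 0.980 CPM after Ezh2-Y726D (SD over n = 3 per group), and this difference did not pass the test (log2 fold change -0.38, adjusted P = 0.124). It was -0.53 and passed without Ezh2-Y726D replicate 2 (adjusted P = 0.0427), and it was -0.20 without Ezh2-Y726D replicate 1.

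Itgax encodes CD11c, the alpha chain that pairs with the beta 2 chain Itgb2, and marks dendritic cells as well as activated microglia. Itgax (ENSMUSG00000030789, chromosome 7, 128129547 to 128150657) was at 24.4, 25.8 and 25.2 CPM in GFP, against 15.6, 16.9 and 18.7 CPM after Ezh2-Y726D. The groups were apart, but the log2 fold change of -0.54 (standard error 0.077) stayed under the fold change of a DEG. Without Ezh2-Y726D replicate 3, the library with the highest Itgax of its group, the log2 fold change was -0.62 and passed it. Itgb2, the beta chain of CD11a, CD11b and CD11c integrins, fell from 64.6 ± 3.17 to 37.1 ± 2.63 CPM (SD over n = 3 per group; log2 fold change -0.78, standard error 0.060, adjusted P = 4.1e-11). Per kilobase, the ratio of Itgax to Itgb2 was 0.247 ± 0.00874 in GFP against 0.292 ± 0.0121 after Ezh2-Y726D (SD over n = 3 per group), without overlap. Of the 8 tested genes of the integrin partner and ligand list, 4 were called lower and none higher, and Itgam, the alpha chain of CD11b, was at 8.61 ± 1.27 and 7.61 ± 0.708 CPM (SD over n = 3 per group) and did not pass (adjusted P = 0.693), although 68.7% of its exonic bases are shared with Gm49368 on the same strand.

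Axl is a TAM receptor kinase that binds apoptotic cells through the bridging ligand Gas6, and glia and vessel cells carry it as well. Axl (ENSMUSG00000002602, chromosome 7, 25757273 to 25788705) was at 155, 157 and 155 CPM in GFP, against 98.8, 94.4 and 93.3 CPM after Ezh2-Y726D. These were the closest replicates of the 10 genes in GFP, with a coefficient of variation of 0.701%, and the log2 fold change was -0.71 (standard error 0.041). Its sister receptors differed less. Mertk fell from 38.7 ± 2.72 to 31.4 ± 0.423 CPM (SD over n = 3 per group), a log2 fold change of -0.27 (adjusted P = 0.00144), and Tyro3 was at 19.7 CPM in both groups (adjusted P = 0.599). The ratio of Axl to Mertk per kilobase was 3.48 ± 0.241 in GFP against 2.62 ± 0.0653 after Ezh2-Y726D (SD over n = 3 per group). The ligand Gas6 moved the opposite way and rose from 146 ± 12.1 to 182 ± 4.09 CPM (SD over n = 3 per group; log2 fold change 0.29, standard error 0.046, adjusted P = 1.13e-05), whereas the second ligand Pros1 was at 84.5 and 84.1 CPM (adjusted P = 0.882). Of 14 tested genes of this list, 2 were called lower, Rac2 with -0.81 as the lowest, and none higher.

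Apoe and Lpl handle lipid outside the cell, Apoe as the carrier of lipoproteins and Lpl as the enzyme that cleaves their triglycerides. Apoe (ENSMUSG00000002985, chromosome 7, 19696109 to 19699188) was at 3031, 3071 and 3195 CPM in GFP, against 1989, 1994 and 1966 CPM after Ezh2-Y726D, a log2 fold change of -0.64 (standard error 0.038). All Ezh2-Y726D libraries were lower, and per kilobase of exon only 8 of the genes tested, Apoe among them, were at or above its GFP level. Müller glia are another source of Apoe in the retina. None of the 11 tested Müller glia markers was a DEG, and their summed level was 10030 to 10610 CPM in GFP against 10390 to 10820 CPM after Ezh2-Y726D. Of these 11, 3 fell, with Gfap lowest at -0.29 (adjusted P = 0.000158), and 4 rose, with Sox9 highest at 0.21 (adjusted P = 0.0157, and 0.125 without GFP replicate 2).

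Genes that supply or use Apoe lipids were followed in a list of 21, of which 20 were tested, 6 called lower and none higher, with a median of -0.12. Abca1, the transporter that loads Apoe with cholesterol, fell from 293 ± 17.02 to 153 ± 2.36 CPM (SD over n = 3 per group), which is -0.93 on the log2 scale (standard error 0.042, adjusted P = 1.92e-15). The partner transporter Abcg1 fell by 0.57 (adjusted P = 1.38e-10), and the oxysterol receptor Nr1h3, which drives both, fell by 0.91 (standard error 0.14, adjusted P = 1.29e-05). Apoc1, a neighbour of Apoe in the same gene cluster, fell from 6.51 ± 1.43 to 4.001 ± 0.438 CPM (SD over n = 3 per group; log2 fold change -0.64, adjusted P = 0.00147), and was not called without GFP replicate 3 (-0.54) or Ezh2-Y726D replicate 1 (-0.56). The largest decrease was that of the scavenger receptor Msr1, with -1.80 (standard error 0.15, adjusted P = 1.21e-10). Of the Apoe receptors, Lrp8 rose by 0.35 (adjusted P = 1.06e-05), and Lrp1, at 384 ± 16.3 and 367 ± 8.26 CPM (SD over n = 3 per group), did not pass (adjusted P = 0.327).

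Lpl was the exception among the 10. Lpl (ENSMUSG00000015568, chromosome 8, 68880491 to 68907448) was at 13.9, 12.9 and 9.29 CPM in GFP, against 15.9, 16.4 and 17.1 CPM after Ezh2-Y726D. Every Ezh2-Y726D library lay above every GFP library, but the log2 fold change was only 0.36 (standard error 0.095) and GFP replicate 3, with 56 counts, was the lowest. It was 0.54 without GFP replicate 1, and 0.25 with GFP replicates 2 and 3 left out, and so with 1 GFP library. Among 6 tested partners and inhibitors of Lpl, Angptl4, a secreted inhibitor, was called lower with -0.76 (standard error 0.25, adjusted P = 0.0249) at under 2 CPM, and none was called higher. This call was lost with DESeq2 (adjusted P = 0.111) and without GFP replicate 1, GFP replicate 2, Ezh2-Y726D replicate 1 or Ezh2-Y726D replicate 2 (adjusted P = 0.0522 to 0.117). Lmf1, which Lpl needs to fold, was at 14.7 CPM in both groups (adjusted P = 0.883), and the activator Apoc2 had 0 counts in 5 libraries and 2 in 1, with 79.5% of its exonic bases shared with Gm44805.

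Cst7 encodes cystatin F, an inhibitor of the cathepsins that activate granule and lysosomal proteases. Cst7 (ENSMUSG00000068129, chromosome 2, 150570415 to 150578944) was at 7.33, 10.3 and 10.4 CPM in GFP, against 7.67, 6.32 and 6.91 CPM after Ezh2-Y726D. It was the only member whose groups overlapped, because GFP replicate 1 lay among those of Ezh2-Y726D. The log2 fold change was -0.29 (standard error 0.13), and it was -0.57 without GFP replicate 1 and -0.06 without GFP replicates 2 and 3. Of the 10 tested proteases and other cystatins around it, 4 were called lower and none higher. Ctss, a cathepsin of phagocytes, fell from 471 ± 41.9 to 255 ± 29.2 CPM (SD over n = 3 per group; log2 fold change -0.88, adjusted P = 6.59e-12). Ctsc, a target of cystatin F, fell by 0.48 (adjusted P = 9.35e-10), legumain (Lgmn) by 0.40 (adjusted P = 9.77e-08) and Cst3, a cystatin of nearly all cells, by 0.12 (adjusted P = 0.0281, and 0.0593 to 0.253 without GFP replicate 1, Ezh2-Y726D replicate 2 or Ezh2-Y726D replicate 3).

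Gpnmb and Spp1 stood furthest from GFP among the 10. Gpnmb (ENSMUSG00000029816, chromosome 6, 49036546 to 49070929), a transmembrane glycoprotein of phagocytes with a heavy lysosomal load and of pigment cells, was at 145, 154 and 174 CPM in GFP replicates 1 to 3 and at 30.7, 31.3 and 32.3 CPM after Ezh2-Y726D. The highest Ezh2-Y726D library was thus far under the lowest GFP library, and the GFP mean was 4.95 times that after Ezh2-Y726D by the fitted log2 fold change of -2.31 (standard error 0.055). Only 14 of the 18138 genes tested had a lower log2 fold change. Spp1 (ENSMUSG00000029304, chromosome 5, 104435118 to 104441050), which encodes the matrix protein osteopontin, was at 30.2, 35.9 and 42.0 CPM in GFP, against 11.8, 12.2 and 12.5 CPM after Ezh2-Y726D (log2 fold change -1.49, standard error 0.089). Both genes spread more among the GFP libraries than after Ezh2-Y726D, with coefficients of variation of 9.13% and 16.3% against 2.61% and 2.74%. Gm42793, on the same strand, shares 18.8% of the exonic bases of Spp1, and its reads could be counted there.

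Markers of pigment cells, another known source of Gpnmb, were low. The 11 listed markers of retinal pigment epithelium and melanocytes summed to 7.40 to 8.63 CPM in GFP against 7.49 to 8.09 CPM after Ezh2-Y726D, and none of the 6 tested was a DEG. Mitf, the transcription factor that drives Gpnmb in pigment cells and osteoclasts, was at 11.5 ± 0.365 and 12.4 ± 0.473 CPM (SD over n = 3 per group) and did not pass (adjusted P = 0.544). Its relative Tfec was at 0.498 to 0.903 CPM in GFP and at 0.237 to 0.392 CPM after Ezh2-Y726D, too low for the test. Of 9 tested receptors of osteopontin, Itga4 was called lower with -0.65 (adjusted P = 4.41e-08) and none higher, and without Ezh2-Y726D replicate 1 Itga4 was at -0.55 and not called. Of the 9, 6 fell, and Itga4 was the only DEG. Cd44 fell by 0.22 (adjusted P = 7.64e-05) and Itgav by 0.13 (adjusted P = 0.0147, and 0.0673 and 0.0867 without GFP replicate 3 and Ezh2-Y726D replicate 2).

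**Figure D2:**
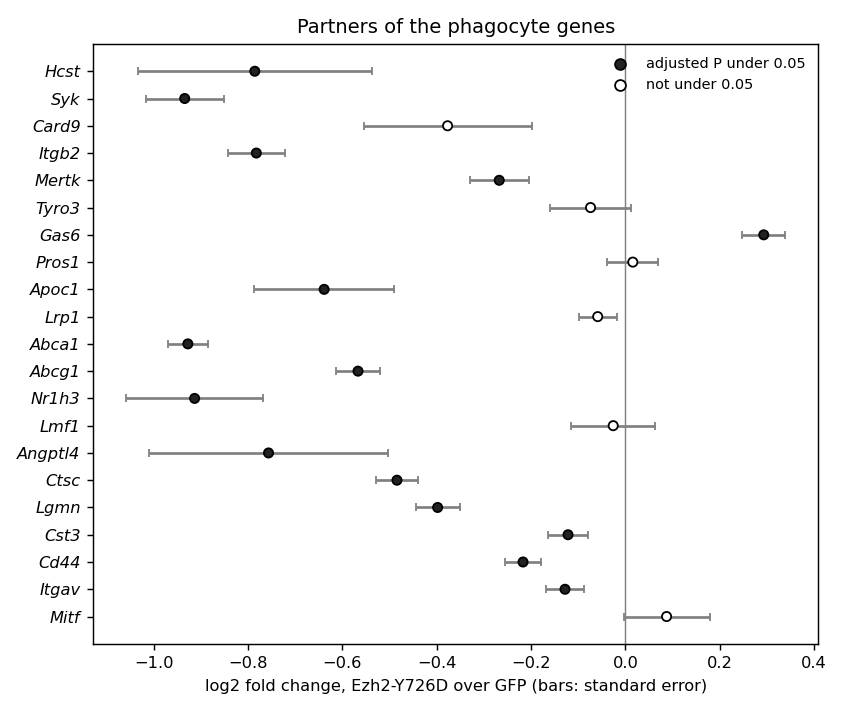
Log2 fold change of Ezh2-Y726D over GFP with its standard error from edgeR for genes that bind the 10 phagocyte genes or act beside them. Filled points passed the test. Syk, Abca1 and Nr1h3 lie near -0.9, and Gas6 and Mitf lie to the right of 0.

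The level of the 10 genes was compared per kilobase of exon, since longer genes collect more reads. In GFP, Apoe (1449 ± 40.2 CPM per kilobase) was followed by Tyrobp (80.2 ± 4.65), Axl (30.9 ± 0.217), Gpnmb (24.2 ± 2.21), Spp1 (21.9 ± 3.56), Clec7a (9.57 ± 1.18), Cst7 (9.50 ± 1.79), Itgax (5.23 ± 0.152), Trem2 (5.04 ± 0.519) and Lpl (1.15 ± 0.230; SD, n = 3 libraries per group). The neighbours Gpnmb and Spp1, Clec7a and Cst7, and Itgax and Trem2 differed by less than their spread. After Ezh2-Y726D the order of Apoe, Tyrobp and Axl was kept, and Gpnmb, at 4.83 ± 0.126 CPM per kilobase (SD, n = 3), was below Spp1 (7.39 ± 0.203), Cst7 (7.07 ± 0.684) and Clec7a (4.90 ± 0.563). Of these neighbours, Spp1 and Cst7, and Clec7a and Gpnmb, differed by less than their spread. Over all genes tested, Gpnmb stood at the percentile 93.4 of levels per kilobase in GFP and at 57.5 after Ezh2-Y726D, whereas Apoe stood at 99.96 in both.

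To see whether the 10 genes differed alike, each was set against genes that microglia and macrophages express in general. Some of these, such as Ptprc, Coro1a and Rac2, are shared with T cells, so this reference is not particular to myeloid cells. Of the 14 pan-myeloid genes, 12 were called lower and none higher, with a median of -0.81, and Lyz2, the lysozyme of macrophages, fell most, from 506 ± 29.7 to 118 ± 12.4 CPM (SD over n = 3 per group; log2 fold change -2.10, adjusted P = 4.45e-21). Relative to the median of these genes in the same library, Gpnmb was lower by a log2 difference of -1.40 and Spp1 by -0.61, without overlap of the groups, as held for 0.452% of all genes tested (92.2% in either direction). Lpl (1.36), Itgax (0.35) and Trem2 (0.17) were higher without overlap, as were 91.7% of all genes. The groups overlapped for Tyrobp (-0.02), Clec7a (-0.04), Axl (0.20), Apoe (0.26) and Cst7 (0.51). With 1 library left out, Tyrobp lay at -0.06 to 0.02 and Clec7a at -0.15 to 0.04, so neither kept its sign. Axl lay at 0.09 to 0.28, Apoe at 0.17 to 0.34 and Cst7 at 0.34 to 0.65. The 10 genes therefore differed unequally, with Tyrobp and Clec7a near the pan-myeloid median, Gpnmb and Spp1 below it and Lpl above it. These ratios show unequal change within a library and not which gene was constant.

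**Figure D3:**
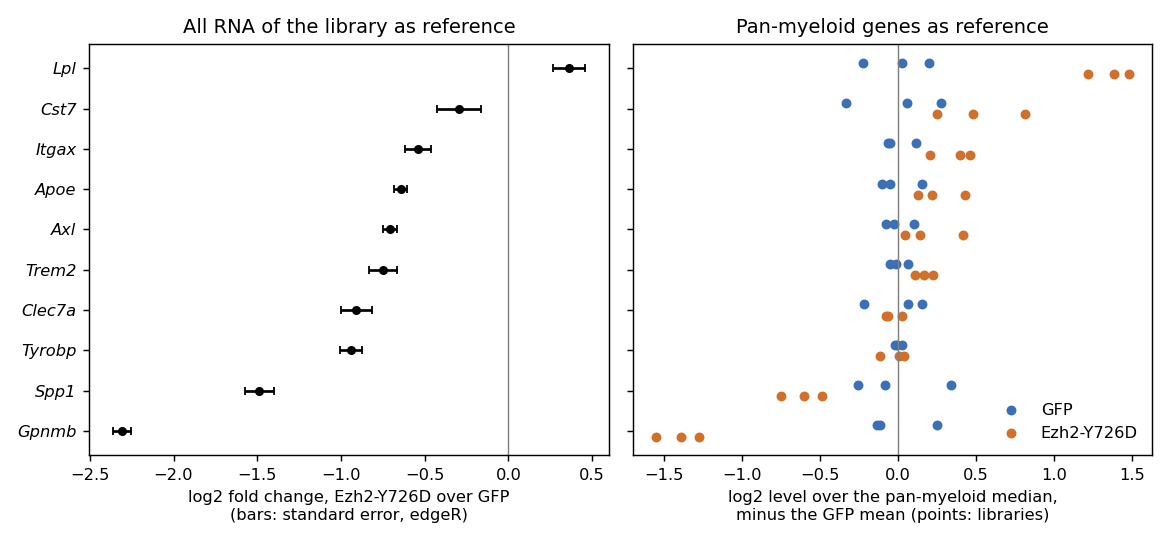
Left, log2 fold change of each phagocyte gene with its standard error from edgeR. Right, its log2 level over the median of 14 pan-myeloid genes in each GFP (blue) and Ezh2-Y726D (orange) library, with the GFP mean set to 0. On the right, Gpnmb and Spp1 remain below GFP at -1.40 and -0.61, Lpl is at 1.36, and the groups overlap for Tyrobp and Clec7a.

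Genes of resting microglia gave calls in both directions. Of the 14 homeostatic microglia genes tested, 1 was called lower and 2 higher, with a median of -0.13 and a summed level of 495 to 521 CPM in GFP against 431 to 474 CPM after Ezh2-Y726D. Fcrls fell by 1.49 (standard error 0.35, adjusted P = 0.0017) and Slc2a5 rose by 1.14 (standard error 0.32, adjusted P = 0.00705), both at under 2 CPM. Slc2a5 did not pass with DESeq2 (adjusted P = 0.071), without GFP replicate 1 none of the list was called, and 1 gene was called higher without Ezh2-Y726D replicate 1 or without Ezh2-Y726D replicate 3. Against the median of this list in the same library, 9 of the 10 phagocyte genes were lower and Lpl was higher (0.45). The groups did not overlap for 9 of them, the exception being Cst7, and for 21.4% of all genes tested. Trem2 (-0.74) and Itgax (-0.55), which were higher relative to the pan-myeloid median, were lower by this reference. The differences of Axl (-0.71), Apoe (-0.65) and Cst7 (-0.40) also changed sign, although their groups had overlapped against the pan-myeloid median. The direction of all these genes thus depends on the myeloid genes they are set against.

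Of 30 further genes of the same phagocyte state, all tested, 14 were called lower and none higher, with a median of -0.57. Ms4a7, a membrane protein of macrophages, had the largest decrease, from 17.7 ± 2.92 to 4.02 ± 0.491 CPM (SD over n = 3 per group; log2 fold change -2.03, standard error 0.12, adjusted P = 5.31e-13). Ccl3, an attracting chemokine of activated microglia, was highest at 0.31 and did not pass (adjusted P = 0.061), although it passed without GFP replicate 2 (0.36, adjusted P = 0.0434). Among 20 tested regulators of phagocyte, lysosome or lipid genes, 5 were called lower, led by Nr1h3, and none higher, and Fos was highest at 0.42 (adjusted P = 0.00013), below the fold change of a DEG. Ezh2-Y726D replicate 1 had 309 CPM of Fos against 211 and 228 CPM in the others, the log2 fold change was 0.24 without it, and DESeq2 did not pass Fos (adjusted P = 0.0728).

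Markers of other cells that CD90.2 sorting of retina could hold moved to different extents, and their part in the levels of the 10 genes was not tested. Of 7 tested genes of macrophages at vessels and borders, 5 were called lower and none higher, with a median of -1.57 and a summed level of 91.1 to 97.9 CPM in GFP against 29.5 to 32.6 CPM after Ezh2-Y726D. Stab1, a scavenger receptor of these cells, fell from 53.3 ± 0.644 to 13.5 ± 0.991 CPM (SD over n = 3 per group; log2 fold change -1.98, adjusted P = 7.35e-19). Of 5 tested genes of monocytes and neutrophils, 4 were called lower and none higher, with Ly6c2, a marker of blood monocytes, lowest at -1.58 (adjusted P = 3.78e-14), and the summed level went from 118 to 124 CPM in GFP to 60.7 to 69.4 CPM. Another 5 listed genes of monocytes and neutrophils had at most 3 counts in any library.

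T cells, which carry CD90.2 themselves, showed 8 of 10 tested genes lower and none higher as DEGs, with Cd8a lowest (-0.97, adjusted P = 7e-07) and a summed level of 139 to 142 CPM in GFP against 79.6 to 87.6 CPM after Ezh2-Y726D without Thy1. Thy1, the sorted antigen that RGCs share, was at 106 and 116 CPM, and with it the sums were 240 to 250 CPM and 193 to 209 CPM. B cells showed 2 of 7 lower, but 0 or 1 with any library but GFP replicate 3 left out, among them Cd79b (-0.98, adjusted P = 0.0094, and 0.0579 with DESeq2 and 0.0502 to 0.107 without GFP replicate 1, Ezh2-Y726D replicate 1 or Ezh2-Y726D replicate 3), with sums of 110 to 116 CPM and 93.6 to 115 CPM. Dendritic cells, which share Itgax, showed 3 of 10 lower and 1 higher, with sums of 102 to 106 CPM and 71.5 to 80.2 CPM, and 1 was lower without Ezh2-Y726D replicate 1. Ccr7, the receptor by which dendritic cells and T cells reach lymph nodes, fell by 0.66 (adjusted P = 3.52e-05), but the log2 fold change was -0.38 without GFP replicate 1 (adjusted P = 0.0474) and -0.58 without Ezh2-Y726D replicate 1, both below the fold change of a DEG. The 1 higher gene, Cd209a, had group means under 2 CPM and overlapping groups and lost its call with DESeq2 (adjusted P = 0.107) or when GFP replicate 2, GFP replicate 3, Ezh2-Y726D replicate 1 or Ezh2-Y726D replicate 3 was left out (adjusted P = 0.102 to 0.183).

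None of 14 RGC markers was a DEG, and their summed level was 645 to 665 CPM in GFP against 614 to 661 CPM after Ezh2-Y726D. Isl1, a transcription factor of RGCs and other inner neurons, was lowest at -0.58 (adjusted P = 1.45e-08), was called lower without GFP replicate 3 (-0.60), Ezh2-Y726D replicate 2 (-0.60) or Ezh2-Y726D replicate 3 (-0.61), and Pou4f1 was highest at 0.41 (adjusted P = 0.00151, and 0.058 without GFP replicate 1). Of 9 endothelial genes, 1 was called lower, Esam with -0.79 (adjusted P = 4.3e-07), and the sums without Kdr, which was singled out after its values were seen and was at 763 and 696 CPM, were 36.6 to 42.3 CPM and 28.8 to 33.8 CPM. Of 11 photoreceptor genes, 2 were called lower and none higher, with Gnat2, the cone transducin, lowest at -0.72 (adjusted P = 7.81e-12). Amacrine cells went the other way, with 4 of 8 genes called higher, led by the glycine transporter Slc6a9 (0.74, adjusted P = 1.01e-11, with 30.2% of its exonic bases opposite Ccdc24), and sums of 1069 to 1144 CPM and 1633 to 1700 CPM.

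**Figure D4:**
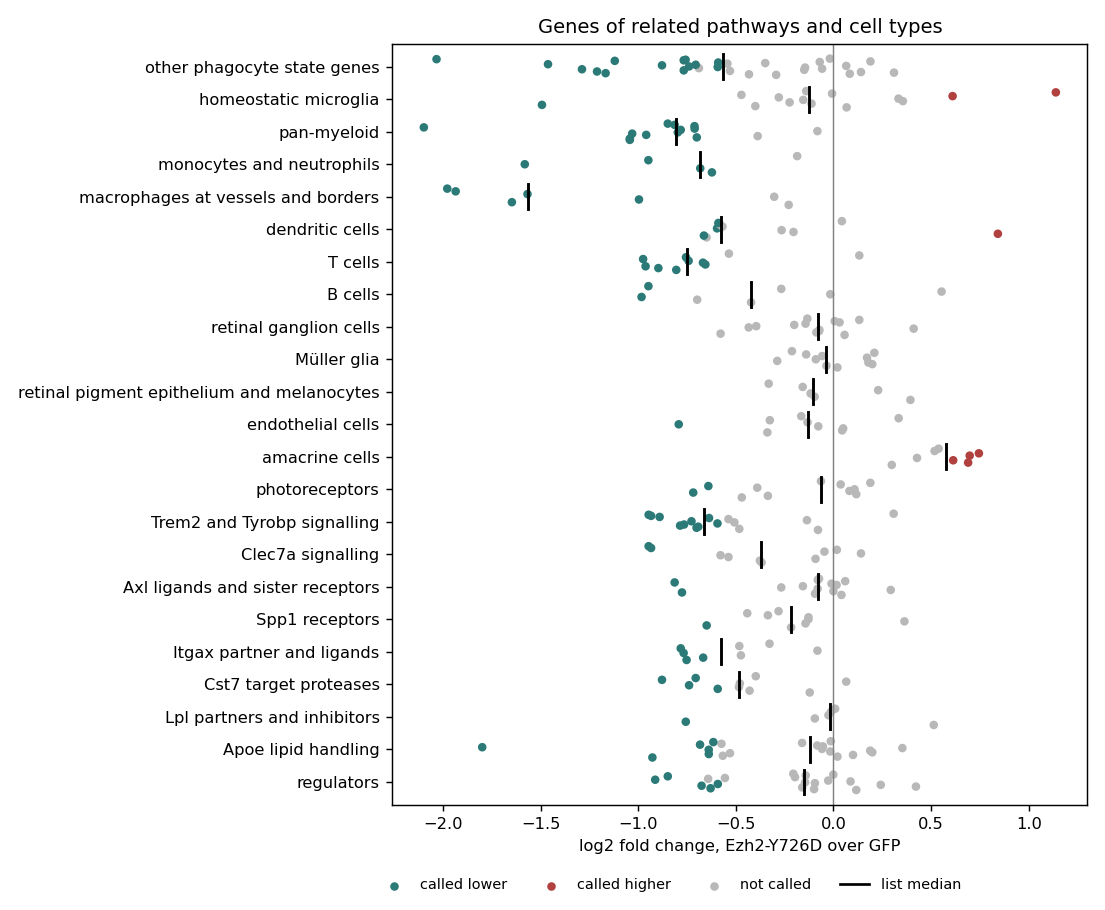
Log2 fold change of Ezh2-Y726D over GFP for each tested gene of 23 lists of pathways and cell types, none of the 10 phagocyte genes included, with the list median as a black bar. Teal points were called lower and red points higher as DEGs. The medians of macrophages at vessels and borders (-1.57) and pan-myeloid genes (-0.81) are the lowest, and that of amacrine cells (0.58) is the highest.

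The levels of the 10 genes, each standardised over the 6 libraries and averaged, were matched with the other genes that had a mean of at least 5 CPM. The closest of 12242 were Zbp1 (Pearson's r = 0.9995 over 6 libraries), a sensor of nucleic acids, Cacna2d4 (0.9994), a calcium channel subunit of photoreceptors, Ifi204 (0.9989) and Parp9 (0.9989), both interferon-induced, and Kif21b (0.9986), a kinesin. The points are 2 groups of 3 libraries that share virus and composition, so each r is a description. Zbp1 was at 25.4 ± 2.16 CPM in GFP against 10.9 ± 0.792 CPM after Ezh2-Y726D (SD over n = 3 per group).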

How the data were processed

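RNA-Seq counts of CD90.2-sorted retinal cells were analysed from 3 GFP and 3 Ezh2-Y726D libraries. The deposited table holds raw read counts by gene (whole numbers, not scaled), from libraries of a stranded total RNA kit. The submitters' processing notes name STAR 2.7.0d and GRCm38. The counting tool, annotation and strand setting are not given in the sources used here. Symbols were found for 32325 of 32371 identifiers, and coordinates and union exon lengths are from GENCODE vM21 (GRCm38, 32342 identifiers), which may not be the authors' annotation.

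Genes were filtered with edgeR's filterByExpr (10 counts, total of 15), scaled by TMM (factors 0.647 to 1.31) and compared with the quasi-likelihood test of edgeR 4.0.16 in R 4.3.3, with Benjamini-Hochberg adjustment over 18138 genes. Adjusted P values are from this test unless DESeq2 is named. DEGs differed over 1.5-fold at an adjusted P below 0.05. Standard errors are log2 fold changes over the root of F. Levels relative to a list are log2(CPM + 0.5) minus the list median in the library. The procedure was tested on simulated counts.

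The members, the 23 gene lists and the rule for named genes were chosen with earlier results of these data known. Named were Ezh2, the members, their direct partners, the lowest and highest gene of each list with at least 1 CPM in the higher group (a few named by this rule are not reported here), and the 5 genes most like the members. Lists overlap, and members were left out of them. Every pair of libraries differed by more than counting noise (chi-square per degree of freedom 1.49 to 3.10 within groups). Alternatives were RLE factors, library totals with and without the rRNA gene, DESeq2 1.42.0, other filters and thresholds, a replicate block, leaving out libraries, and another myeloid reference or prior.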

Additional observations from a re-analysis of the deposited data

How the results depend on the processing

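TMM gave 1455 DEGs, 998 of them lower, 7 of them among the 10 phagocyte genes and 85 among the genes of the 23 lists. With library totals, which keep the rRNA gene in the denominator, 65 DEGs were left, 19 of them lower, with 1 phagocyte gene (Gpnmb) and 2 list genes. The median of all genes was then 0.49, the 10 genes had a median of -0.23, and Cst7 was at 0.16. With library totals that leave out the rRNA gene, RLE factors, DESeq2, no filter or a filter of 10 counts in each library, these 3 counts were within 1.5 times. With GFP replicates 2 and 3 both left out (added after the data were seen), there were 1401 DEGs, 7 phagocyte genes and 79 list genes, but the lone GFP library is assumed to vary like the Ezh2-Y726D libraries, which alone give the spread. Of 50 named partner and list genes that passed, 41 to 47 passed in the same direction with 1 library left out and none reversed, whereas with library totals 2 passed and 9 reversed. Without a fold change threshold there were 4988 DEGs and 156 list genes, and at a fold change over 2 there were 443 DEGs, 2 phagocyte genes and 18 list genes. With 1 library left out there were 1207 to 1404 DEGs, 7 or 8 phagocyte genes (8 without Ezh2-Y726D replicate 3) and 73 to 88 list genes.

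The median of the 10 genes relative to the pan-myeloid genes was 0.18 (0.13 to 0.24 with 1 library left out) and -0.73 relative to the homeostatic microglia genes, where Trem2 was at -0.74 and Itgax at -0.55. Same-numbered libraries share a number in the labels, which do not say whether anything else was shared. Their deviations from the group means correlated by 0.136, 0.051 and 0.0391, and each library correlated best with its own number. With the replicate number as a block there were 1403 DEGs, 7 phagocyte genes and 86 list genes. Depth limits Cst7 and Lpl most, with 63 and 56 counts in GFP replicate 3.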
